A study of Mus musculus with 6 samples.

Results

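The genes described here are 10 markers of T and natural killer (NK) lymphocytes, given as a fixed list of gene symbols: Cd3d, Cd3e, Cd3g, Cd5, Cd4, Cd8a, Cd8b1, Lck, Nkg7 and Klrb1c. They were followed in mouse liver among 13568 genes tested in all. RNA came from the right liver lobes of male C57BL/6J mice killed 3 days after surgery. PVBL stands for ligation of the left portal vein branch, after which the right lobes were collected as regenerating tissue; controls were sham-operated. There were 3 PVBL and 3 sham samples, and every sample was hybridised to 1 single-colour Agilent array. The labels give no age, and whether each sample is another mouse is not stated; p-values therefore rest on sample-to-sample spread that can be in part technical.

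T cells recognise antigen through a receptor whose signal passes through the CD3 chains, which are encoded by Cd3d, Cd3e and Cd3g. The coreceptors CD4 and CD8 mark the helper and the cytotoxic lineage and bring the kinase Lck to the receptor. NK cells kill without an antigen receptor, are abundant among liver lymphocytes, and carry NK1.1, the product of Klrb1c, in C57BL/6 mice. Whole liver is mostly hepatocyte RNA, so transcripts of resident lymphocytes make up a small part of it, and fewer cells of a type and less RNA per cell cannot be told apart.

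Values are log2 signals relative to the 75th percentile of each array, so that a level of 0 is the signal at that percentile; levels of different probes are not comparable. The percentile lay at 331 to 407 units on the PVBL arrays and 203 to 315 on the sham arrays, and 48% to 53.6% of probes were well above background. Alb, the albumin gene, checked the tissue label: its log2 level was 10.41 ± 0.25 in PVBL and 10.69 ± 0.05 in sham (SD, n = 3; adjusted p = 0.191). The sham arrays were in row 1 and the PVBL arrays in row 2 of the same slide, so the surgery and the row cannot be told apart. PVBL 3 stood apart from PVBL 1 and PVBL 2 in several leukocyte genes, among them Cd52, a surface protein of leukocytes, at a log2 level of 3.70 against 2.41 and 2.27.

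All 10 markers had a named probe, 14 probes in all, and 8 markers (10 probes) were tested because every array of PVBL, of sham or of both read them well above background. Every tested marker had a lower mean in PVBL than in sham. In limma with Benjamini-Hochberg adjustment over all genes, 4 of the 8 passed the threshold of 0.05, all of them lower: Cd3d, Cd3g, Cd5 and Cd8a. Over all genes tested 17.8% were called lower and 32.9% were called in either direction. The median log2 difference of the 8 was -0.52, against -0.10 over all genes tested. Cd8a and Cd5 passed the filter on dim probes only through the sham arrays, which favours a lower PVBL mean. The count and the median therefore describe the tested markers and do not support a fall. The median of the other 6 was -0.34. In 5 of the 8 the values of both groups did not overlap, each time with PVBL lower, which held for 29.1% of all genes tested (51.4% did not overlap in either direction). Cd8a and Cd5 are among these 5, so this count does not support a fall either.

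**Figure D1:**
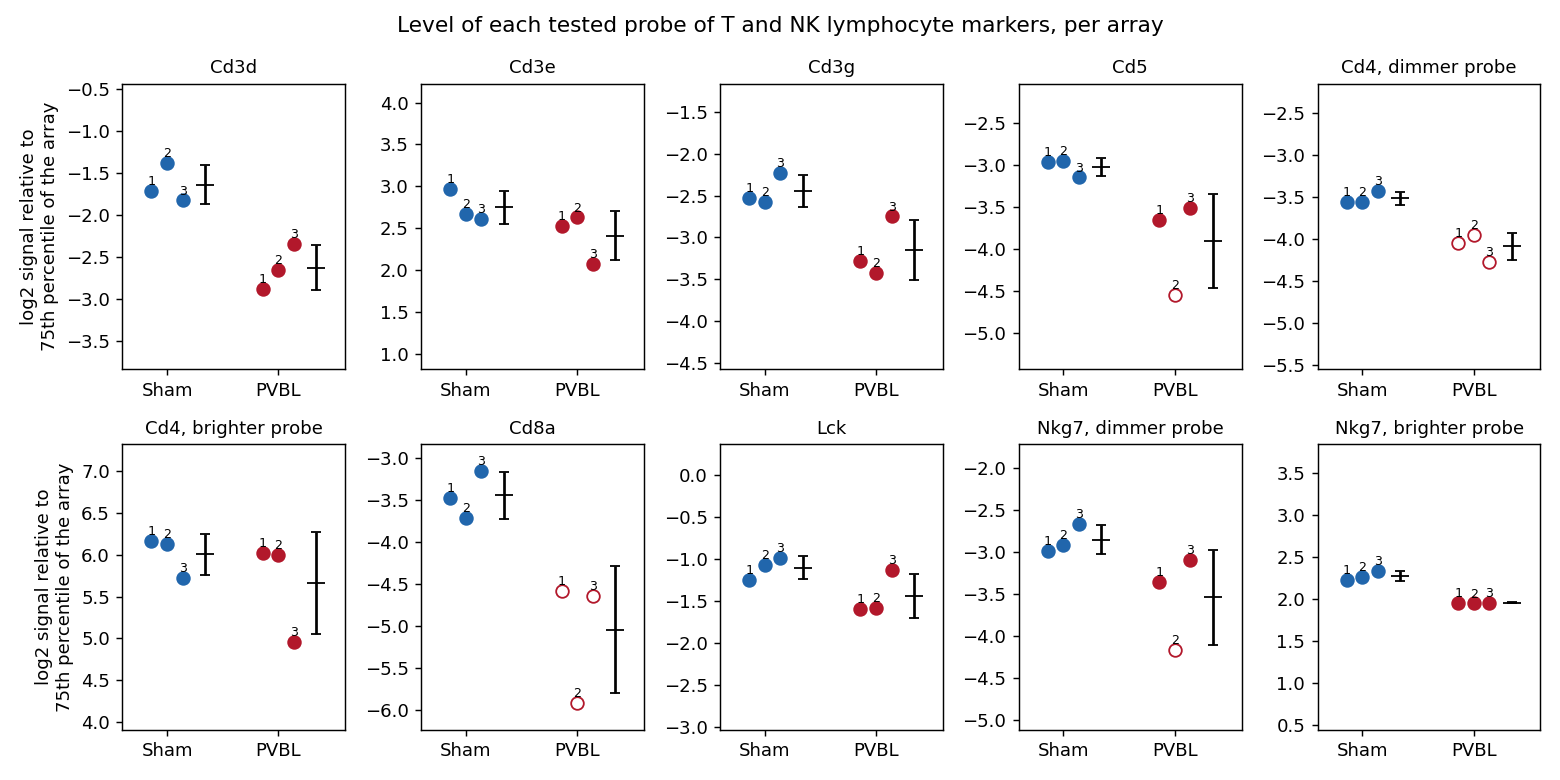
Log2 signal of each of the 10 tested marker probes relative to the 75th percentile of its array, by group; points are arrays with their replicate number, filled where well above background and open where not, and the bars beside them are the mean ± SD (n = 3). All 10 probes had a lower PVBL mean; PVBL and sham points overlap for Cd3e, Lck and the brighter Cd4 probe only, and each panel spans the same number of log2 units.

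The CD3 chains were measured on all 6 arrays by 1 probe each. For Cd3d the log2 levels were -2.88, -2.66 and -2.35 in PVBL 1 to 3 and -1.72, -1.38 and -1.83 in sham 1 to 3 (probe A_51_P285206). Every PVBL array lay below every sham array. Cd3d transcripts were 1.98-fold lower in PVBL, at a log2 difference of -0.99 ± 0.19 (SE, 3 arrays per group; adjusted p = 0.00867). Cd3g, whose product pairs with CD3 epsilon in the receptor complex, read -3.28, -3.42 and -2.75 in PVBL 1 to 3 and -2.53, -2.58 and -2.23 in sham 1 to 3. The groups again did not overlap, with PVBL 3 the nearest to sham. Cd3g was 1.63-fold lower (-0.70 ± 0.20, adjusted p = 0.0357).

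Cd3e, whose product carries a signalling motif and forms pairs with the other chains, gave a bright signal with a different order of arrays. Its log2 levels were 2.53, 2.63 and 2.08 in PVBL 1 to 3 and 2.97, 2.67 and 2.61 in sham 1 to 3. PVBL 2 lay above sham 3, and PVBL 3, the highest PVBL array for Cd3d and Cd3g, was the lowest for Cd3e. The difference of -0.34 ± 0.18 did not pass the threshold (adjusted p = 0.194), with a 95% interval from -0.77 to 0.10, which overlaps the intervals of Cd3d (-1.42 to -0.55) and Cd3g (-1.18 to -0.23). Differences between the chains were not tested. The Cd3e probe ranked above 87.4% of all probes on the arrays, against 62.7% for Cd3d and 58.1% for Cd3g. Whether it reports the transcript of T cells was not tested.

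The call of Cd3d held without any 1 of the 6 arrays (-1.12 to -0.85) and in 19 of 20 alternative settings. It was lost when arrays were scaled on the spike-in probes, RNA added in a fixed amount (-0.56, adjusted p = 0.421). In that fit every tested marker had the same SE of 0.40. Calls with spike-in scaling therefore followed the size of the difference and not the spread of each marker. Leaving out 1 array at a time, the call of Cd3g held without PVBL 3 (-0.90) and was lost without PVBL 1 (-0.64), PVBL 2 (-0.57), sham 1 (-0.75), sham 2 (-0.77) or sham 3 (-0.59). It was also lost with median, quantile or spike-in scaling (-0.57, -0.62 and -0.28). Over the whole list the count of called markers ran from 1 (without sham 1 or sham 3) through 2 (without PVBL 1 or sham 2) and 3 (without PVBL 2) to 5 (without PVBL 3).

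The CD3 genes lie next to each other on mouse chromosome 9, in the order Cd3g, Cd3d and Cd3e. Cd3d and Cd3g passed the test and Cd3e did not, but differences between the chains were not tested. The promoter windows of all 3 are printed because these genes encode chains of the same receptor and neighbour each other. Each runs from 250 bases before to 50 bases after the transcript start in RefSeq (build GRCm38.p6), 5′ to 3′ on the gene's strand: chr9:44981536-44981835 on the plus strand for Cd3d, chr9:44980382-44980681 on the minus strand for Cd3g and chr9:45009562-45009861 on the minus strand for Cd3e. Capitals mark AGGAAG on either strand, a form of the motif bound by ETS factors, which are known regulators of T cell genes.
Cd3d: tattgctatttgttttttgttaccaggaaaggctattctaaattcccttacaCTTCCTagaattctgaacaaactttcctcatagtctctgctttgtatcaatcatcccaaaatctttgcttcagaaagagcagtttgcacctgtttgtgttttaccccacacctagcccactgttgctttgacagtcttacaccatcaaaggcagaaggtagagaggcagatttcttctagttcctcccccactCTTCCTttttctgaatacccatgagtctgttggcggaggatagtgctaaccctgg
Cd3g: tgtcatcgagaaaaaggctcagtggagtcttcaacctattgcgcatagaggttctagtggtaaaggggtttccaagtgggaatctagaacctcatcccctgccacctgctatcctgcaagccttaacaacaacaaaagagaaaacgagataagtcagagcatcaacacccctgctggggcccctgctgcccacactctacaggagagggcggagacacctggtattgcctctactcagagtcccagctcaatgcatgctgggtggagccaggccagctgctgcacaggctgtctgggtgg
Cd3e: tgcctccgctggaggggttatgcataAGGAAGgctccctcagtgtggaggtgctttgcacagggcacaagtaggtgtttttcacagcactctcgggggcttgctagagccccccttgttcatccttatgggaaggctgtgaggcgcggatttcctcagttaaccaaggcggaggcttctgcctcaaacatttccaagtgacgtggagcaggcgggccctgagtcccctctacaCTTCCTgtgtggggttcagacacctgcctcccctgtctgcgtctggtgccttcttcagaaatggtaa
The ETS letters occurred 2 times in the Cd3d window, 2 times in the Cd3e window and 0 times in the Cd3g window, against at least 1 match in 35.4% of 32851 RefSeq windows of this length. TGTGGT, a form of the RUNX motif, was searched on both strands as well and was in none of these 3 windows (16.8% of all windows hold it). CANNTG, the E-box, had 1 match in Cd3d, 4 in Cd3g and 2 in Cd3e (72.3% of all windows hold it). Whether these letters bear on the levels of the 3 genes was not tested. Of the 10 markers, 8 had a window in the table. The windows of Cd5, which was called lower, and of Nkg7 held 2 and 1 ETS matches, that of Cd8a held 0, that of Klrb1c held 3 and those of Lck held 1 and 3. RUNX letters occurred in those of Nkg7 and Klrb1c and in 1 of the 2 windows of Lck.

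Cd5 encodes an inhibitory receptor of T cells that some B cells also carry. Its log2 levels were -3.66, -4.55 and -3.51 in PVBL 1 to 3 and -2.97, -2.95 and -3.15 in sham 1 to 3. All PVBL arrays were below all sham arrays, and PVBL 2, the lowest, was not well above background. Cd5 was 1.85-fold lower in PVBL (-0.89 ± 0.27, adjusted p = 0.0420). The call held without PVBL 2, where the difference was -0.57, and without PVBL 3 (-1.09). It was lost without PVBL 1 (-1.01) or any 1 sham array (-0.95 to -0.85) and with quantile, median or spike-in scaling (-0.76, -0.76 and -0.46). The unscaled signals were 32.1, 14.1 and 29.8 units in PVBL 1 to 3 against 40.2, 39.1 and 23.0 in sham 1 to 3. On that scale sham 3, the array with the lowest 75th percentile, lay among the PVBL arrays.

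Cd8a, which encodes the alpha chain of the CD8 coreceptor, was read on signals at the edge of detection. The unscaled signals of the tested probe (A_52_P150547) were 17.0, 5.47 and 13.7 units in PVBL 1 to 3 and 28.4, 22.9 and 22.9 units in sham 1 to 3. The probe was well above background on all 3 sham arrays and on no PVBL array. Log2 levels averaged -5.05 ± 0.75 (PVBL) and -3.44 ± 0.28 (sham; SD, n = 3), and differed by -1.60 ± 0.36 (adjusted p = 0.0165). Setting the sham mean against the lowest signal well above background on each PVBL array, Cd8a was 1.63-fold lower in PVBL. That fold carries no error and is not a strict minimum, as some probes not well above background read higher than that signal. The difference was -1.17 without PVBL 2, the dimmest array, and -0.53 with normexp background correction, which adds a fixed offset to every signal. The call was lost without sham 1 (-1.61, adjusted p = 0.0527) or sham 3 (-1.46, adjusted p = 0.0585). Cd8a was the only marker called with spike-in scaling (-1.17, adjusted p = 0.029). Its SE there was 0.40, as for every tested marker, so that call followed the size of a difference read near background.

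The other Cd8a probe (A_52_P443334), printed in 10 spots per array for another transcript, was well above background on none of the 6 arrays. Its mean signals were 5.07, 9.07 and 5.28 units in PVBL 1 to 3 and 6.26, 6.09 and 3.77 units in sham 1 to 3, and the groups overlapped. On PVBL 2 a lone spot read 53.8 units, marked as an outlier on that array, while the median of the 10 spots was 10.6. Cd8b1, which encodes the CD8 beta chain, was well above background on PVBL 1 and sham 1 only, and was not tested. Its signals were 32.4, 17.7 and 15.8 units in PVBL 1 to 3 and 23.9, 16.9 and 13.2 units in sham 1 to 3. PVBL 1 was the highest array for Cd8b1, and the log2 levels of -4.10 ± 0.41 in PVBL and -3.94 ± 0.22 in sham overlapped. A difference in CD8 beta could therefore not be measured beside that of CD8 alpha.

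**Figure D2:**
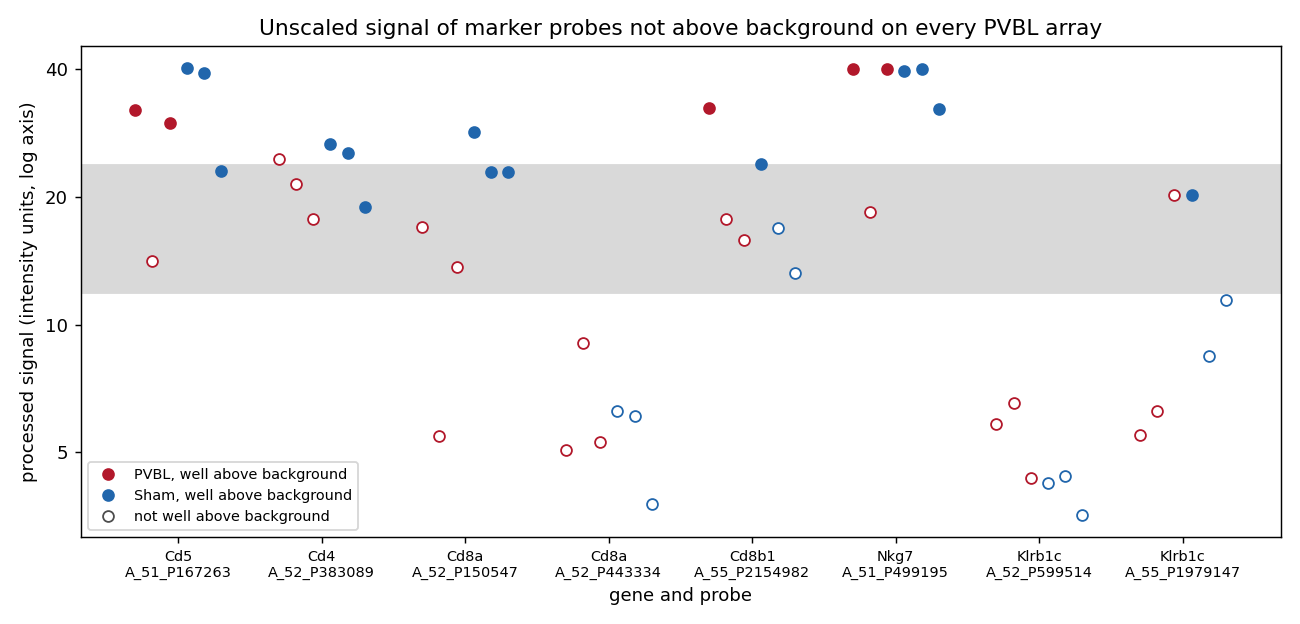
Unscaled processed signal (intensity units, log axis) of the 8 marker probes that were not well above background on every PVBL array; each point is an array, PVBL in red and sham in blue, filled where well above background and open where not. The grey band spans the lowest signals that counted as well above background, 11.9 to 23.8 units over the 6 arrays; the tested Cd8a probe has 3 filled sham points and 3 open PVBL points, and both Klrb1c probes lie mostly below the band.

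Cd4 was read by a pair of probes that gave different accounts. The brighter (A_55_P2013655), which stood for the gene, read 26400, 21200 and 10600 units in PVBL 1 to 3 and 22500, 21100 and 10700 units in sham 1 to 3. Its scaled log2 levels were 6.02, 6.00 and 4.96 in PVBL and 6.16, 6.13 and 5.72 in sham. PVBL 1 and PVBL 2 lay between the sham arrays, and PVBL 3 was below all of them. The difference of -0.35 ± 0.30 did not pass the threshold (adjusted p = 0.405; 95% interval -1.06 to 0.37), and it was 0.01 without PVBL 3. The dimmer probe (A_52_P383089), printed in 10 spots per array, had mean signals of 24.5, 21.4 and 17.7 units in PVBL 1 to 3 and 26.7, 25.4 and 18.9 units in sham 1 to 3. It was well above background on all 3 sham arrays and on no PVBL array. Its log2 levels were -4.05, -3.95 and -4.27 in PVBL and -3.56, -3.56 and -3.43 in sham, without overlap. It was called lower when all probes were tested (-0.57 ± 0.14, adjusted p = 0.0209). The fold was 1.44 with PVBL signals raised to at least the lowest signal well above background on each array. Over all probes tested 30.5% were called in either direction. Like Cd8a it had passed the filter only through the sham arrays. Of its 10 spots, 5, 1 and 4 were well above background in PVBL 1 to 3 and 10, 9 and 9 in sham 1 to 3. Outlier marks removed 4 spots on PVBL 1 and 3 on PVBL 3; with them kept the difference was -0.62 (adjusted p = 0.0174). The brighter probe ranked above 96.3% of all probes on the arrays and the dimmer above 50.5%; which of them reports the transcript of CD4+ T cells was not tested.

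Lck, the kinase that CD4 and CD8 carry to the T cell receptor, was measured on all arrays. Its log2 levels were -1.59, -1.58 and -1.13 in PVBL 1 to 3 and -1.25, -1.07 and -0.98 in sham 1 to 3. PVBL 1 and PVBL 2 were below all sham arrays, and PVBL 3 lay among them. The difference of -0.33 ± 0.16 did not pass the threshold (adjusted p = 0.162; 95% interval -0.72 to 0.06). Without PVBL 3 it was -0.48 and passed (adjusted p = 0.0344), and it also passed with array weights (-0.42, adjusted p = 0.0112).

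Nkg7 and Klrb1c stand for NK cells in the list, and only Nkg7 could be tested. Nkg7, a granule protein of NK cells and cytotoxic T cells, had log2 levels of 1.96, 1.95 and 1.96 in PVBL 1 to 3 and 2.23, 2.26 and 2.34 in sham 1 to 3 (probe A_55_P2009582). The groups did not overlap and the spread within each was small, at 0.0046 in PVBL and 0.057 in sham (SD, n = 3). The difference of -0.32 ± 0.11 was 1.25-fold and missed the threshold (adjusted p = 0.0583; 95% interval -0.57 to -0.07). It passed with quantile scaling (-0.31, adjusted p = 0.0485), with limma-trend, with array weights and in the deposited value table, which lists only probes whose groups do not overlap, and was 0.11 with spike-in scaling. The dimmer Nkg7 probe, below background on PVBL 2, gave -0.68 ± 0.28 (adjusted p = 0.102 over all probes), with log2 levels of -3.35, -4.17 and -3.09 in PVBL and -2.99, -2.91 and -2.66 in sham. Klrb1c was not tested. Its probe A_52_P599514 read 3.56 to 6.52 units on the 6 arrays and was well above background on none. The other, A_55_P1979147, was well above background on sham 1 only, at 20.2 units, with 5.50, 6.27 and 20.2 units in PVBL 1 to 3 and 8.43 and 11.4 units in sham 2 and sham 3. No level of Klrb1c can be given for either group.

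The size of these differences rested on how the arrays were scaled. The 75th percentile lay 0.43 log2 units higher over the spike-in probes in PVBL (-5.06) than in sham (-5.48). By array it was -4.71, -5.29 and -5.17 in PVBL 1 to 3 and -5.23, -5.25 and -5.98 in sham 1 to 3. The gap came from PVBL 1 and sham 3, as the other arrays of both groups lay between -5.29 and -5.17. Scaling on the spike-in probes raised every difference by 0.43. The median over all genes tested was then 0.33 and the median of the markers -0.10, with 4 of 8 below 0. Cd3e, Cd4, Lck and Nkg7 turned to 0.09, 0.08, 0.10 and 0.11, none of them past the threshold. With the arrays scaled on their median, the markers' median was -0.39 against 0.03 for all genes, and with quantile scaling it was -0.48 against -0.04. Relative to all genes the tested markers were at -0.42, -0.42, -0.42 and -0.43 with the 75th percentile, spike-in, median and quantile scaling. The first 3 of these scalings subtract 1 value per array from every gene. Their values are therefore equal by construction and do not show that the difference holds across scalings. Cd3d was called under 3 of these 4 scalings and Cd8a under all 4. Cd8a was well above background on no PVBL array and passed the filter only through the sham arrays. Its calls therefore do not support a fall. Cd5, which is also in the median, passed the filter only through the sham arrays as well.

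**Figure D3:**
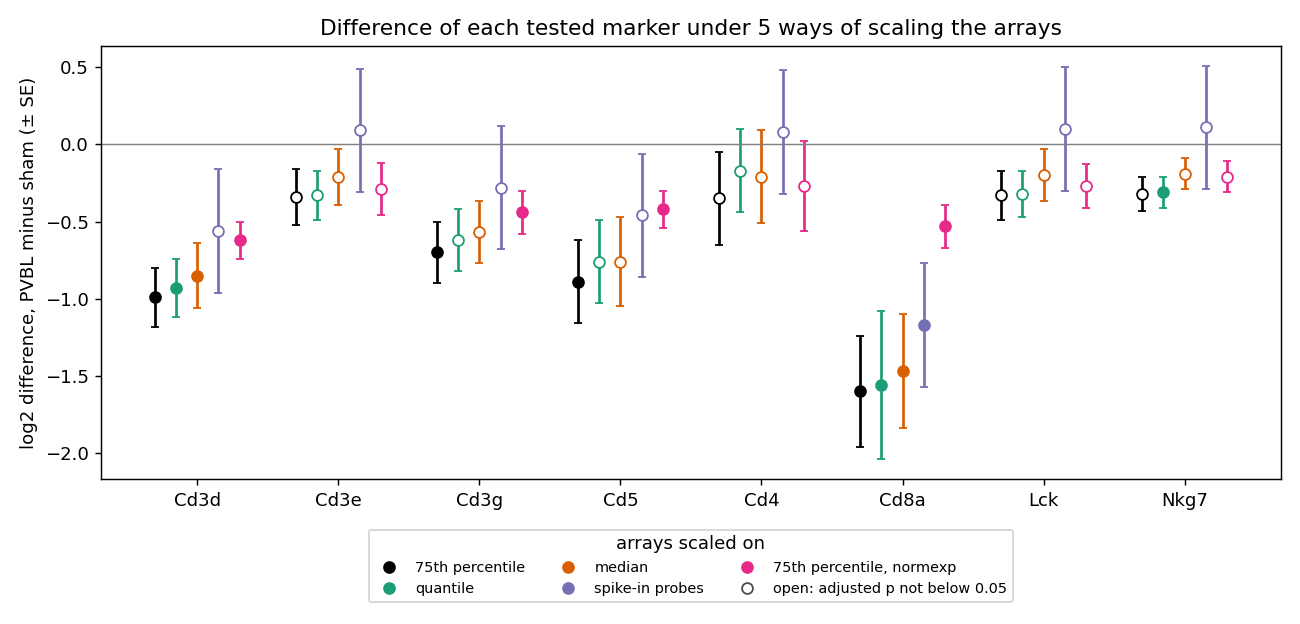
Log2 difference (PVBL minus sham, ± SE, n = 3 per group) of the 8 tested markers under 5 ways of scaling or background correction, coloured by setting; filled points passed an adjusted p of 0.05 and open points did not. All 8 points lie below 0 in every setting except spike-in scaling, where Cd3e, Cd4, Lck and Nkg7 lie at 0.08 to 0.11.

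Of 118 such genes in 5 lists (receptor signalling, transcription factors, cytotoxic effectors, NK receptors, homing and cytokine receptors), 63 were tested; 13 were lower and 3 higher past the threshold, 25.4% in all, with a median of -0.35. Over all genes tested 32.9% were called and 17.8% were called lower, so these counts are no result about T and NK genes. With spike-in scaling the split was 1 lower and 5 higher and the median 0.08. Without PVBL 3 there were 29 lower and 3 higher of 63, where 2561 of all 13606 genes tested in that fit were called lower and 2217 higher. Without sham 1 or sham 2 there were 6 lower and 3 higher, where 1074 and 1431 of all genes were called lower. How these counts stood beside those of all genes thus changed with the array left out. Of the 118, 50 genes had a probe but were not tested for want of signal above background, among them Cd247 (CD3 zeta), Bcl11b, Gata3, Tbx21, Eomes, Foxp3, Klrk1, Klrg1, Ncr1, Il7r and Ifng.

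In the receptor signalling list 3 of the 18 tested genes fell and 1 rose (median -0.47). Without PVBL 3, 7 were called lower. Cd6, a scavenger receptor of T cells related to Cd5, was 2.26-fold lower (-1.17 ± 0.22, adjusted p = 0.00838), with log2 levels of -2.86, -2.44 and -2.85 in PVBL and -1.41, -1.97 and -1.25 in sham; its dimmest probe gave -0.64 and was not called. Skap1, an adaptor of T cell adhesion, was 1.63-fold lower, and the call was lost without sham 1 (-0.72, adjusted p = 0.0505). Ptprcap, a protein that associates with CD45, was 1.39-fold lower, and the call was lost without any 1 of PVBL 1, PVBL 2 and the sham arrays (-0.55 to -0.43). Themis, known for its part in thymocyte selection, went the other way. Its probe cleared background on the 3 PVBL arrays but on 0 sham arrays. It passed the filter only through the PVBL arrays, which favours a higher PVBL mean, so its call does not support a rise. Its log2 levels were -2.65, -2.17 and -2.02 in PVBL and -4.36, -4.72 and -3.76 in sham. It was 3.55-fold higher with sham signals raised to at least the lowest signal well above background on each array. With normexp its difference was 0.45 and not called. Zap70, the kinase that docks on the CD3 chains, is named after its value was seen: -1.32 ± 0.43, adjusted p = 0.0538.

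Among 12 tested transcription factors of the lineages, 3 fell and 2 rose (median -0.34). Id2, which NK cells need and many other cells express, was 2.04-fold lower (-1.03 ± 0.17). Zbtb16, the factor PLZF of innate-like T cells, was 3.27-fold higher (1.71 ± 0.25) and Tcf7, the T cell factor TCF-1, 1.82-fold higher (0.87 ± 0.17). Both were also called higher under all 20 alternatives. Which liver cells carried these 2 transcripts was not tested.

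Of 9 tested cytotoxic effector genes only Tnfsf10 (TRAIL) passed, 2.03-fold lower (-1.02 ± 0.11, adjusted p = 0.000976), at -0.87, -0.91 and -0.84 in PVBL and 0.08, 0.22 and 0.13 in sham. The list's median was -0.32. The tested granule genes, named after their values were seen, had differences of 0.00 (Gzmb), -0.03 (Prf1), -0.11 (Gzmm), -0.44 (Gzma) and -0.55 (Gzmk), none past the threshold. Without PVBL 3, 4 of the 9 genes of the list were called lower. Of 6 tested NK receptor and adaptor genes 1 fell, Klra1 of the Ly49 receptors (1.93-fold, -0.95 ± 0.27). Its probe may also read other, near-identical Ly49 genes, and the call was lost without PVBL 1 (-0.78), PVBL 2 (-0.92), sham 2 (-0.93) or sham 3 (-0.72). Klrd1, the CD94 chain, was at -0.04 ± 0.41 (adjusted p = 0.943; named after its value was seen). Without PVBL 3 all 6 were called lower, with a median of -0.82 against -0.41.

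Receptors for homing and cytokines fell in 5 of 18 tested cases and rose in 0 (median -0.24). That is 27.8%, where over all genes tested 17.8% were called lower and 32.9% in either direction. Cxcr3, the receptor of interferon-induced chemokines on effector T cells, was 1.82-fold lower, with log2 levels of -2.92, -3.0 and -2.33 in PVBL and -1.64, -1.93 and -2.07 in sham. Ccr7, which guides naive T cells and dendritic cells, was 1.76-fold lower, Il12rb2, a chain of the interleukin 12 receptor, 1.72-fold and Cxcr6, typical of liver-resident lymphocytes, 1.68-fold. In all 4 the groups did not overlap. With spike-in scaling the calls of all 10 genes named here as lower in the 5 lists were lost, at differences from -0.75 to -0.05. The calls were lost without PVBL 1, PVBL 2, sham 1 or sham 2 for Cxcr3 (-0.89 to -0.74), without PVBL 1, PVBL 2, sham 1 or sham 3 for Ccr7 (-0.84 to -0.65), without sham 1 or sham 2 for Il12rb2 (-0.74 and -0.79) and without PVBL 1 or sham 2 for Cxcr6 (-0.73 and -0.74).

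Ligands that act on T and NK cells moved in both directions. Of 18 tested chemokines, cytokines and adhesion or costimulatory ligands, 7 fell and 4 rose, 61.1% in all (median -0.29). Over all genes tested 32.9% were called, 17.8% lower and 15.1% higher. Ccl21a, a ligand of CCR7 made by lymphatic and stromal cells, was 8.76-fold lower (-3.13 ± 0.48, adjusted p = 0.00388), with log2 levels of -1.63, -2.27 and -3.22 in PVBL and 0.09, 1.52 and 0.65 in sham; its probe may also read near-identical Ccl21 copies. Cd274, the inhibitory ligand PD-L1, was called lower (-1.24); it was well above background on 2 PVBL arrays and passed the filter only through the sham arrays. Ccl2, which draws monocytes, was 4.62-fold higher (2.21 ± 0.44), highest in PVBL 3 at 1.97 against 0.42 and 0.12. Ccl7 was well above background on the PVBL arrays only and passed the filter through them, so its call does not support a rise. It was 3.07-fold higher with sham signals raised in the way given for Themis. With normexp the difference of Ccl7 was 0.59 and not called. Of these named ligands, Cd274 lost its call with spike-in scaling (-0.81).

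**Figure D4:**
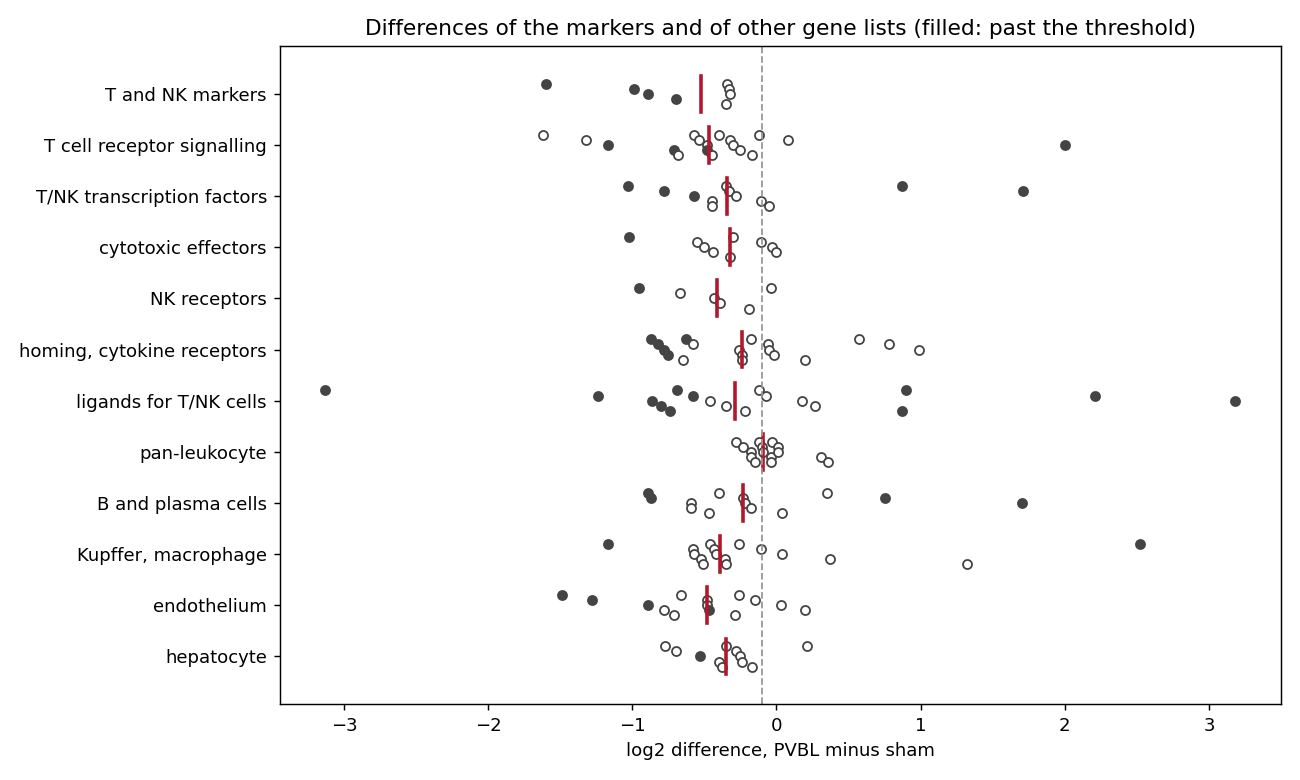
Log2 difference (PVBL minus sham) of each tested gene in the markers and in 11 other lists; filled points passed an adjusted p of 0.05, open points did not, red bars are list medians and the dashed line is the median of all 13568 genes tested (-0.10). The 8 markers lie between -1.60 and -0.32, while the 15 pan-leukocyte genes lie between -0.28 and 0.36 with no filled point (8 were called lower without PVBL 3).

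Of 15 tested pan-leukocyte genes 0 passed the threshold in limma and 0 had an unadjusted p below 0.05 (median -0.09). This rested on PVBL 3: without that array 8 of the 15 were called lower (median -0.52), where 2561 of all 13606 genes tested were. Without PVBL 2 the median of the pan-leukocyte genes was 0.22 with 0 called. With array weights 3 were called lower. Their summed linear level ran from 29.7 to 54.8 times the 75th percentile in PVBL and from 35.3 to 38.3 in sham. Ptprc, encoding CD45, had a difference of -0.23 ± 0.30 (adjusted p = 0.583), Lcp1 -0.03 and Cd52 -0.10. Without PVBL 3 Ptprc was at -0.59 (adjusted p = 0.0247) and Cd52 at -0.55 (adjusted p = 0.0162), both called lower, and without PVBL 2 they were at 0.01 and 0.16. Several markers of other cell types differed as well, where over all genes tested 17.8% were called lower and 15.1% higher. Of 14 endothelial markers 4 fell and none rose (median -0.48): Clec4g, Ptprb, Fcgr2b and Vwf, of sinusoidal or vascular endothelium, at 2.81-fold, 2.42-fold, 1.85-fold and 1.39-fold lower, with a summed level of 62.3 to 94.5 in PVBL and 140 to 150 in sham; without PVBL 3, 10 were called lower. Of 13 tested B and plasma cell markers 2 fell and 2 rose (median -0.23, with 9 of 13 below 0). The summed level was 28.1 to 31.4 in PVBL and 16.7 to 19.6 in sham, and without Blnk and Sdc1 it was 2.79 to 4.20 and 4.02 to 4.88. Cd22 fell 1.83-fold; Fcrla was called lower (-0.89) but was above background on only 1 PVBL array and passed the filter through the sham arrays. Blnk and Sdc1, which other liver cells also express, rose 3.26-fold and 1.68-fold. Of 16 Kupffer cell and macrophage markers Marco rose 5.72-fold and Mrc1 fell 2.25-fold (summed level 167 to 381 in PVBL, 223 to 245 in sham); without PVBL 3, 12 were called lower and 2 higher. Of 14 tested genes listed as dendritic cell markers Ly6d rose 97.2-fold and Cd74 fell 2.61-fold. The list did not share the rise of Ly6d: its median was -0.28, with 12 of 14 below 0. Which cells carried Ly6d was not tested. Without PVBL 3, 7 of the 14 were called lower. Of 9 tested neutrophil markers Lcn2, which hepatocytes also make, rose 7.07-fold. Of 11 hepatocyte genes Fgb fell 1.44-fold, and the summed level was 5070 to 6330 in PVBL and 6950 to 7770 in sham. All 13 tested cell division genes rose, Mki67 by 6.06 ± 0.14. Top2a, Bub1 and Plk1 passed the filter only through the PVBL arrays, and the 10 others were well above background on all 6 arrays. The part of these lists in the lower marker levels was not tested. Calls of Fcgr2b, Vwf, Fcrla, Mrc1 and Cd74 were each lost in at least 4 of the 6 fits that left out 1 array, at differences from -1.60 to -0.38. Sdc1 lost its call without sham 2 (0.73) or sham 3 (0.65), and Fgb without sham 1 (-0.49) or sham 2 (-0.53) and with quantile scaling (-0.13). With spike-in scaling every gene named here as lower in these lists lost its call, at differences from -1.06 to -0.04.

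The 5 genes whose pattern over the 6 arrays was most like the mean of the CD3 chains were Tbkbp1, Arhgap6, Adprm, Ica1l and Rsf1, with Pearson r from 0.996 to 0.998 used only to rank 13568 genes. The arrays share the slide and the scaling, and as all 5 were lower in every PVBL array, the measure mostly holds the step between the groups. Tbkbp1, for example, read 2.11, 2.15 and 2.33 in PVBL 1 to 3 and 3.19, 3.12 and 3.09 in sham 1 to 3. None of the 5 is in the lists of lymphocyte genes.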

How the data were processed

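Right-lobe RNA from 3 PVBL and 3 sham samples was measured on 6 single-colour Agilent arrays of mouse design 028005 on 1 slide. Per the file headers, Feature Extraction 10.7.3.1 made the deposited processed intensity (background-subtracted), while the submitters' processing notes name version 9.1. The series' deposited value table holds log2 values; by comparison with the scanner values they are scaled to the 75th percentile and centred per probe, and it lists 7849 probes. How its probes were chosen is not given in the sources used here.

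Control spots and outlier spots (115 to 201 per array) were left out; 0 spots were saturated. The log2 of the intensity minus the 75th percentile of the array was averaged over the spots of a probe. A probe was tested where it was well above background (more than 50% of its spots) on all arrays of at least 1 group, and the brightest tested probe stood for the gene. Of 55681 probes, 26413 had 1 gene symbol by RefSeq accession (GRCm38.p6) and 29268 none. limma 3.58.1 in R 4.3.3 (lmFit, eBayes) compared the groups, with Benjamini-Hochberg adjustment over 13568 genes and a threshold of 0.05; it was tested on simulated data. For probes well above background on no array of 1 group, a second fold raised the signals of that group to at least the lowest signal well above background on each array. It carries no error and is not a strict minimum. On PVBL 1, for example, the dimmer Cd4 probe read 24.5 units without being well above background, where the lowest signal well above background was 21.7.

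The markers and gene lists were chosen with earlier results of these data known. Named genes outside the markers are, per list, up to 4 called genes with the largest difference, or the 2 with the highest level where none was called. Some genes that this rule names are not reported here. The alternatives were other scalings, filters, probe choices and weights, the replicate number as a block, each array left out and the value table. The number of arrays limits the precision.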

Additional observations from a re-analysis of the deposited data

How the results depend on the processing

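The count of markers called (4) was 2 with median scaling, 2 with the 75th percentile over probes above background on all arrays, 1 with spike-in scaling, 2 with no filter on dim probes, 2 with probes above background on all 6 arrays, 6 with array weights and 5 with the dimmest tested probe, and 1 to 5 when 1 array was left out. The markers' median difference (-0.52) was -0.10 with spike-in scaling, -0.94 in the authors' deposited value table, where 4 markers remained, and -0.69 to -0.54 with 1 array left out. The 4469 genes called over all became 1848 with spike-in scaling, 7805 with array weights and 2396 to 4778 with 1 array left out. The 16 other T and NK genes called became 6 with spike-in scaling, 39 with array weights and 9 to 32 with 1 array left out. Median scaling moved the split over all genes from 2050 higher and 2419 lower to 2638 and 1562, and spike-in scaling to 1652 and 196. No called marker changed sign under any alternative. The cause of these changes was not tested.

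The same replicate numbers occur in both groups, but the deviations of same-numbered arrays correlated at 0.167, -0.0634 and 0.185, so the numbers were not taken as pairs. With the replicate number as a block 3803 genes, 3 markers and 15 other T and NK genes were called, with a marker median of -0.52; Cd5 lost its call (adjusted p = 0.0584). The normexp correction on the median signal, keeping outlier spots and the dimmest probe per gene were chosen after seeing the data. Signals near background limit Cd5, Cd8a, Cd8b1, Klrb1c and the dimmer Cd4 and Nkg7 probes.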
